A study of Saccharomyces cerevisiae with 24 samples.

Results

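The genes described here encode 10 amino acid permeases of the yeast plasma membrane that are not known chiefly as carriers of sulfur compounds: BAP2, BAP3, DIP5, GAP1, GNP1, AGP1, TAT1, TAT2, CAN1 and LYP1. They were taken by name from 6304 entries with values in both deposited tables, and all 10 were found once in each table and passed the filter on low values. mRNA and ribosome footprints were measured in Saccharomyces cerevisiae of the CEN.PK background. The strains differed in Dim1, an enzyme that methylates adenosines of the small-subunit rRNA, which was wild type (WT) or carried the change E85Q or D87E. Each genotype was sampled in log phase in sulfur-free medium to which 1 mM methionine had been added, and again after 2 h in sulfur-free medium without it. The 6 groups held 2 samples each, with libraries of both assays made from every sample. The samples came from numbered strains, called isolates here (172 and 600 for WT, 623 and 625 for E85Q, 887 and 888 for D87E). The strain labels do not say how the 2 strains of a genotype are related. The amino acids other than methionine and the nitrogen source of the medium are not given in the labels, nor is the way in which the variant alleles were introduced. The series' design text names growth with and without methionine as the question.

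Amino acid permeases of this family carry their substrates inward together with protons. In yeast, extracellular amino acids are sensed at the plasma membrane by the SPS complex (Ssy1, Ptr3, Ssy5), which releases the transcription factors Stp1 and Stp2 to activate genes such as BAP2, BAP3, AGP1, GNP1, TAT1, TAT2 and DIP5. GAP1 is known for a different control: GATA factors activate it when preferred nitrogen sources are scarce, and the permease is removed from the membrane by ubiquitination when they return. CAN1 and LYP1 carry the basic amino acids and are often described as expressed in most media.

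Levels are given as deposited, in RPKM (reads per kilobase of gene, scaled to the library's reads). A difference is a limma estimate on the scale log2(RPKM + 1), given with its standard error (SE), and a gene is said to have risen, fallen or been called when the Benjamini-Hochberg adjusted p over all 4888 tested genes lay below 0.05. Translational efficiency (TE) is the log2 footprint value minus the log2 mRNA value of the same sample. Recovered library sizes were 24.3 to 32.3 M reads (1e6) for mRNA and 21.3 to 81.4 M for footprints, so that 3 reads in 1 kb correspond to at most 0.124 and 0.141 RPKM. The footprint libraries of starved WT and D87E cells, at 21.3 to 27.2 M reads, were shallower than the other footprint libraries. The thinnest value among the 10 genes, TAT1 footprints in starved D87E isolate 887, rests on an estimated 28 reads. Summed mRNA of 7 MATa marker genes was 714 to 1310 RPKM against 7.18 to 27.8 RPKM for 4 MATalpha marker genes, and that of 8 haploid marker genes was 308 to 536 RPKM. Isolates are taken as replicates on the labels' word that each sample was a separate biological one.

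**Figure D1:**
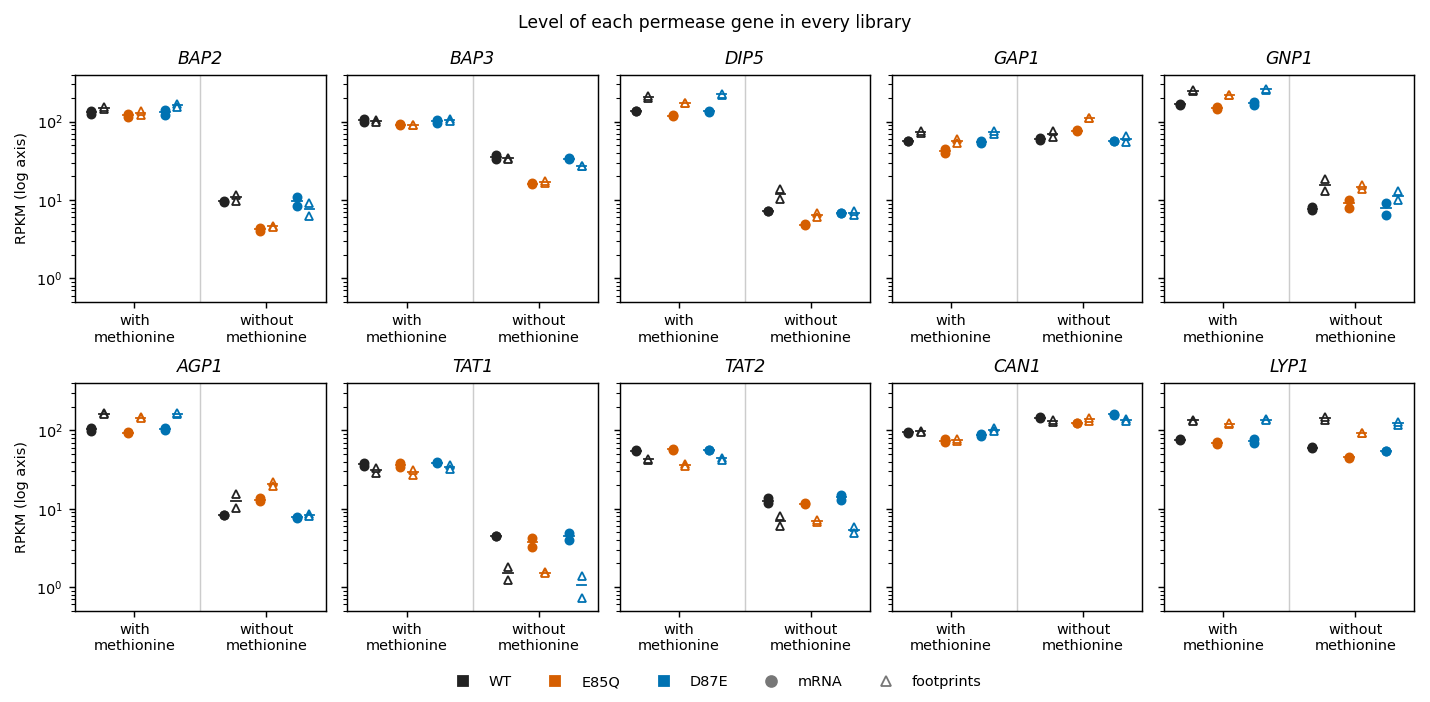
RPKM (log axis) of each gene in every library with methionine (left of each panel) and without (right); filled circles are mRNA, open triangles are footprints, short lines are means of 2 isolates and colours are genotypes. The media separate fully for 8 of the 10 genes in both assays, and overlap for GAP1 in both assays and for LYP1 in footprints. The share of all tested genes that separate in this way was not computed, so the count describes these genes only.

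With methionine, GNP1 mRNA was the highest of the set in every genotype, with means of 166, 148 and 171 RPKM in WT, E85Q and D87E, and TAT1 the lowest, with 36.8, 36.3 and 38.6 RPKM. Without methionine the order changed: CAN1 mRNA was highest, at 146, 125 and 160.0 RPKM, and TAT1 remained lowest, at 4.46, 3.74 and 4.47 RPKM. The summed mRNA of the 10 genes was 958.7 ± 22.8 RPKM (SD, n = 2) in WT with methionine and 352.3 ± 6.36 without. The corresponding sums were 852.5 ± 21.8 and 310.1 ± 0.0707 in E85Q, and 952.6 ± 38.6 and 354.5 ± 8.91 in D87E. Summed footprints stood at 1249 ± 15.6 and 436.3 ± 11.5 RPKM in WT, 1081 ± 9.9 and 415.2 ± 9.83 in E85Q, and 1302 ± 0.707 and 386.0 ± 9.4 in D87E. The set therefore took a smaller part of all RPKM in every starved library. CAN1, GAP1 and LYP1 together made up 23.6% ± 1.06 of the set's mRNA in WT with methionine and 75.7% ± 0.919 without (SD, n = 2). Their share moved from 21.8% ± 0.141 to 79.8% ± 0.424 in E85Q and from 22.6% ± 0.212 to 76.2% ± 0.0707 in D87E. In footprints the share of these genes went from 24.4% to 78.4% in WT, from 23.4% to 82.8% in E85Q and from 23.9% to 82.4% in D87E. LYP1 led the footprints of starved WT cells, and CAN1 led those of starved E85Q and D87E cells.

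**Figure D2:**
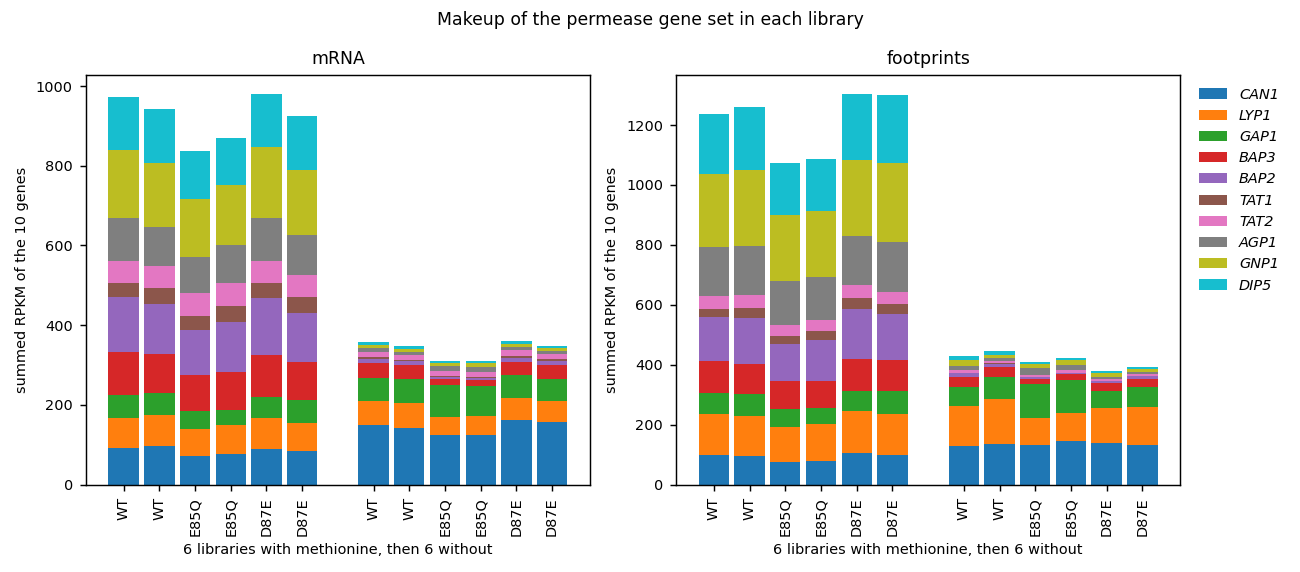
Summed RPKM of the 10 genes in each of the 12 mRNA libraries (left) and 12 footprint libraries (right), stacked by gene, with the 2 isolates of a genotype side by side. Bars with methionine reach 852.5 to 958.7 RPKM on average for mRNA and bars without reach 310.1 to 354.5, and CAN1, LYP1 and GAP1, at the base, fill most of the starved bars.

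The starvation comparisons ask how each gene responds to 2 h without a sulfur source. In WT, 8 of the 10 genes fell and 1 rose in mRNA, where 26.7% of all tested genes fell and 60.2% rose. In E85Q 8 fell and 2 rose, against 30.3% and 46.5% of all tested genes, and in D87E 8 fell and 1 rose, against 25.5% and 60.7%. The median mRNA difference of the set was -2.42 in WT, -2.6 in E85Q and -2.4 in D87E, beside medians over all tested genes of 0.40, 0.14 and 0.41. Because RPKM values carry this shift of all genes, the split of calls depends on scaling: after centring every library on its median, 41.4% of all tested genes fell and 40.4% rose in mRNA in WT, 34.7% and 40.2% in E85Q, and 41.2% and 40.9% in D87E. In footprints 7 genes of the set fell and 1 rose in WT (all tested genes: 32.1% fell, 51.3% rose), 8 fell and 2 rose in E85Q (30.6% and 44.8%), and 8 fell and 1 rose in D87E (35% and 47.3%). Centred footprints gave 40.5% falls and 40.7% rises in WT, 32.4% and 41.8% in E85Q, and 39.8% and 41.0% in D87E. The set's median footprint difference was -3.03 in WT, -2.57 in E85Q and -3.46 in D87E, beside 0.23, 0.13 and 0.15 over all tested genes.

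**Figure D3:**
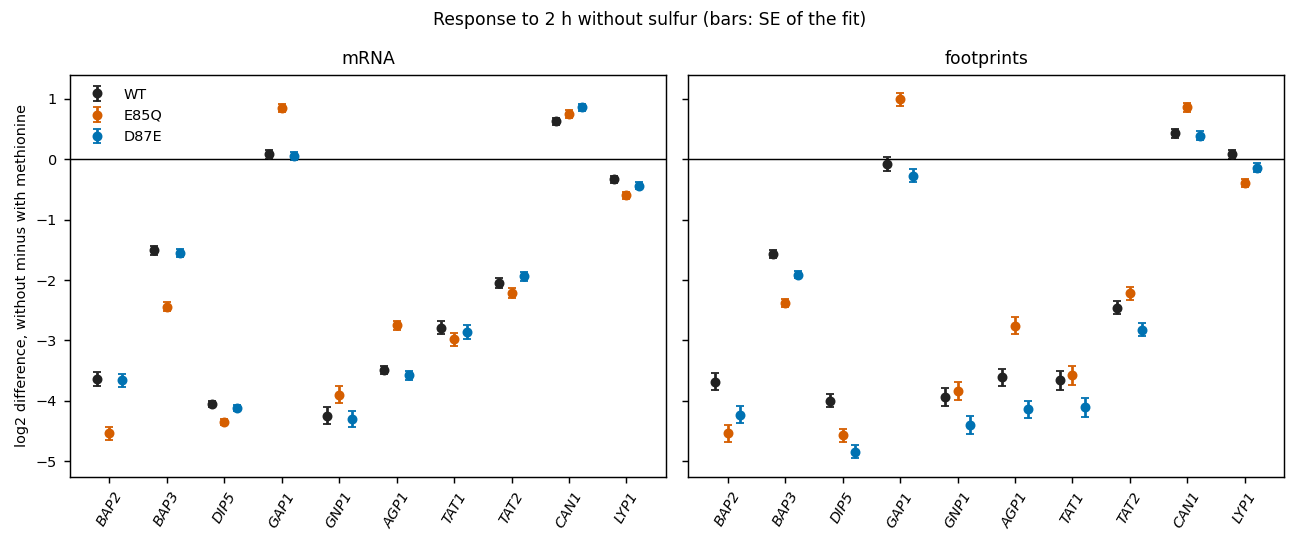
Log2 difference, without minus with methionine, for each gene in mRNA (left) and footprints (right); points are limma estimates for the 3 genotypes and bars are their SE. DIP5, GNP1, BAP2, AGP1, TAT1, TAT2 and BAP3 lie well below 0 in every genotype, CAN1 lies above 0, and GAP1 lies clearly above 0 in E85Q.

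AGP1 and GNP1 encode related permeases of broad and overlapping range, with glutamine and asparagine among their substrates. GNP1 (YDR508C) lies on chromosome IV, 1466453 to 1468444, minus strand. Its mRNA stood at 170.0 and 161 RPKM in the WT isolates with methionine and at 8.05 and 7.51 RPKM without. In E85Q it went from 145 and 152 RPKM to 7.92 and 10.1 RPKM, and in D87E from 177 and 164 RPKM to 9.25 and 6.43 RPKM. All starved libraries lay far below all fed ones, and the starved groups overlapped one another. GNP1 mRNA fell in each genotype, with log2 differences of -4.25 in WT (19.0-fold lower on that scale), -3.90 in E85Q and -4.30 in D87E (SE 0.14 each, limma, adjusted p = 9.2e-10, 1.9e-09 and 9e-10). Footprints of GNP1 fell as well, with differences of -3.93, -3.83 and -4.40 in the same order (SE 0.15 each). No difference between genotypes in this response was called: the E85Q response minus that of WT was 0.34 (95% interval -0.09 to 0.78) for mRNA and 0.10 (-0.37 to 0.57) for footprints.

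AGP1 (YCL025C) lies on chromosome III, 76018 to 77919, minus strand. With methionine its mRNA stood at 108 and 98.1 RPKM in WT, 91.4 and 95.5 RPKM in E85Q, and 107 and 99.9 RPKM in D87E. Without methionine it stood at 8.33 and 8.23 RPKM in WT, 13.6 and 12.4 RPKM in E85Q, and 7.71 and 7.74 RPKM in D87E. Both starved E85Q isolates were above all 4 other starved samples, while the fed E85Q isolates were the lowest of the fed ones. AGP1 mRNA fell in each genotype, with differences of -3.49 in WT, -2.75 in E85Q and -3.58 in D87E (SE 0.07 each, limma adjusted p = 1.6e-11, 1.1e-10 and 1.3e-11). Its footprints stood at 15.3 and 10.2 RPKM in starved WT, 21.9 and 19.6 RPKM in starved E85Q, and 8.62 and 8.1 RPKM in starved D87E, against 145 to 166 RPKM in fed cells. The footprint falls were -3.61, -2.76 and -4.14 (SE 0.14 each). AGP1 and GNP1 are close relatives, as are BAP2 and BAP3, and how reads that match both members of a pair were counted is not given in the sources used here, so a level of either member carries that uncertainty.

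GAP1 (YKR039W, chromosome XI, 515063 to 516871, plus strand) encodes the general permease, which accepts nearly all amino acids. With methionine its mRNA stood at 56.1 and 56.7 RPKM in WT, 44.9 and 39.5 RPKM in E85Q, and 52.8 and 56.4 RPKM in D87E. Without methionine it stood at 57.7 and 61.7 RPKM in WT, 78.8 and 75.3 RPKM in E85Q, and 57.2 and 56.0 RPKM in D87E. E85Q was thus the lowest genotype when fed and the highest when starved, and WT and D87E spanned a narrow range in both media. GAP1 mRNA rose by 0.85 (SE 0.07) in E85Q (limma, adjusted p = 1.1e-06). The differences in WT, 0.08 (95% interval -0.07 to 0.23), and in D87E, 0.05 (-0.10 to 0.21), were not called. Centring turned both of these, to -0.33 in WT and -0.35 in D87E (adjusted p = 0.0011 and 0.00073), and left E85Q as a rise. In footprints GAP1 went from 59.5 and 52.9 RPKM to 113 and 112 RPKM in E85Q, a rise of 0.99 (SE 0.11, adjusted p = 1.9e-05). WT footprints went from 71.1 and 75.0 RPKM to 63.1 and 75.6 RPKM, a difference of -0.08 (95% interval -0.33 to 0.17), which read -0.29 after centring (adjusted p = 0.024) and 0.05 without starved isolate 172. D87E footprints went from 68.8 and 77.1 RPKM to 54.9 and 65.9 RPKM and fell by 0.27 (SE 0.11, adjusted p = 0.043). That call was lost when any of 6 libraries was left out and read -0.14 without starved isolate 887. It was also lost, at -0.27, without the filter on low values and when only the groups compared were fitted (limma adjusted p = 0.053 and 0.09).

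BAP2 and BAP3 encode permeases known for leucine, isoleucine and valine. BAP2 (YBR068C, chromosome II, 373861 to 375690, minus strand) stood at 137 and 125 RPKM of mRNA in fed WT, 115 and 127 RPKM in E85Q, and 143 and 123 RPKM in D87E. In starved cells it stood at 9.67 and 9.54 RPKM in WT, 4.05 and 4.4 RPKM in E85Q, and 8.35 and 10.9 RPKM in D87E. The genotypes overlapped when fed, whereas both starved E85Q isolates were below all other starved samples. BAP2 mRNA fell in each genotype, with differences of -3.64 in WT, -4.54 in E85Q and -3.66 in D87E (SE 0.11 each, limma adjusted p = 6.5e-10, 1.4e-10 and 6e-10). The footprint differences, all falls, were -3.68, -4.54 and -4.23 (SE 0.14 each).

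BAP3 (YDR046C, chromosome IV, 548762 to 550576, minus strand) showed, in WT and D87E, the smallest mRNA fall of the 7 genes that fell strongly. Its mRNA stood at 109 and 98.4 RPKM in fed WT, 90.4 and 93.4 RPKM in E85Q, and 104 and 97.1 RPKM in D87E. After starvation it stood at 37.9 and 33.7 RPKM in WT, 16.3 and 16.0 RPKM in E85Q, and 33.9 and 33.7 RPKM in D87E. Starved WT and D87E overlapped, and E85Q lay well below them. The mRNA differences, all falls, were -1.51 in WT, -2.44 in E85Q and -1.55 in D87E (SE 0.07 each, limma adjusted p = 1.2e-08, 5.1e-10 and 1.1e-08). Its footprints differed by -1.57, -2.38 and -1.91 (SE 0.06 each), also falls.

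TAT1 and TAT2 encode permeases known for tyrosine and tryptophan, and TAT1 also takes branched-chain amino acids. TAT1 (YBR069C, chromosome II, 376574 to 378433, minus strand) is the neighbour of BAP2, with 883 bp between the coding regions. Its mRNA stood at 35.4 and 38.3 RPKM in fed WT, 34.4 and 38.2 RPKM in E85Q, and 38.1 and 39.2 RPKM in D87E. After starvation these values were 4.51 and 4.42 RPKM, 3.28 and 4.2 RPKM, and 4.93 and 4.02 RPKM. Both starved E85Q isolates lay below both WT isolates, and D87E overlapped both genotypes. TAT1 mRNA fell in each genotype, with differences of -2.79, -2.98 and -2.86 in WT, E85Q and D87E (SE 0.11 each, limma adjusted p = 3.4e-09, 2.5e-09 and 2.8e-09). TAT1 footprints were the lowest of the set: 28.5 and 33.4 RPKM in fed WT against 1.82 and 1.24 RPKM in starved WT, 1.54 and 1.5 RPKM in starved E85Q, and 0.73 and 1.37 RPKM in starved D87E. The differences, -3.66, -3.58 and -4.11 (SE 0.16 each), were falls, and the scale understates the fall of values this low.

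TAT2 (YOL020W, chromosome XV, 286172 to 287950, plus strand) stood in fed cells at 55.5 and 55.3 RPKM of mRNA in WT, 56.8 and 57.9 RPKM in E85Q, and 56.2 and 56.0 RPKM in D87E. Starved cells held 13.6 and 11.7 RPKM in WT, 11.7 and 11.5 RPKM in E85Q, and 15.0 and 12.9 RPKM in D87E. TAT2 mRNA fell, with differences of -2.05, -2.21 and -1.94 in this order (SE 0.08 each, limma adjusted p = 2.7e-09, 1.8e-09 and 3.9e-09). TAT2 footprints fell too (-2.46, -2.22 and -2.82, SE 0.11 each).

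DIP5 (YPL265W, chromosome XVI, 41043 to 42869, plus strand) encodes the main carrier of glutamate and aspartate. Its mRNA stood at 135 and 136 RPKM in fed WT, 121 and 117 RPKM in E85Q, and 134 and 135 RPKM in D87E. In starved cells it stood at 7.13 and 7.18 RPKM, 4.88 and 4.84 RPKM, and 6.74 and 6.8 RPKM. No neighbouring groups in the order of mRNA levels overlapped, and E85Q was the lowest genotype in both media. DIP5 mRNA fell, with differences of -4.06, -4.35 and -4.12 in WT, E85Q and D87E (SE 0.05 each, limma adjusted p = 2.8e-13, 1.9e-13 and 2.4e-13). Footprints of DIP5 went from 200.0 and 210.0 RPKM to 13.7 and 10.3 RPKM in WT, from 174 and 173 RPKM to 6.77 and 5.98 RPKM in E85Q, and from 219 and 228 RPKM to 6.47 and 7.23 RPKM in D87E. These were falls of -4.00, -4.57 and -4.84 (SE 0.11 each). DIP5 is the nearest gene downstream of DIM1, the gene that carries the variants: DIM1 spans 39121 to 40077 on the same strand, which leaves 965 bp between the coding regions. DIM1 mRNA averaged 77.7, 91.7 and 82.1 RPKM in fed WT, E85Q and D87E. It was higher in fed E85Q than in fed WT, by 0.24 (SE 0.06, limma adjusted p = 0.023). On starvation it fell, with differences of -2.16, -2.33 and -2.21 in WT, E85Q and D87E (SE 0.06 each). The part of this neighbourhood in the DIP5 levels was not tested.

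CAN1 (YEL063C, chromosome V, 31694 to 33466, minus strand) encodes the arginine permease and was the member whose mRNA and footprints rose in all genotypes. Its mRNA stood at 92.6 and 95.6 RPKM in fed WT, 71.3 and 77.2 RPKM in E85Q, and 89.8 and 84.7 RPKM in D87E. Starved cells held 150.0 and 143 RPKM in WT, 125 and 125 RPKM in E85Q, and 163 and 156 RPKM in D87E. The fed and starved libraries did not overlap, and no neighbouring groups did. CAN1 mRNA rose by 0.63, 0.75 and 0.86 (SE 0.06 each, limma adjusted p = 3.3e-06, 1.5e-06 and 2.8e-07), and its footprints rose by 0.43, 0.86 and 0.39 (SE 0.07 each, adjusted p = 0.00028, 2.5e-06 and 0.0006).

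LYP1 (YNL268W, chromosome XIV, 138550 to 140385, plus strand) encodes the lysine permease. Its mRNA stood at 74.9 and 78.0 RPKM in fed WT, 67.3 and 71.6 RPKM in E85Q, and 78.0 and 70.0 RPKM in D87E. Starved values were 59.7 and 61.1 RPKM in WT, 44.9 and 46.0 RPKM in E85Q, and 54.4 and 53.9 RPKM in D87E. The starved genotypes did not overlap. LYP1 mRNA fell, with differences of -0.33, -0.60 and -0.44 (SE 0.06 each, limma adjusted p = 0.00046, 7.8e-06 and 5.4e-05). Footprints did not follow in every genotype. They stood at 137 and 132 RPKM in fed and 135 and 149 RPKM in starved WT, a difference of 0.08 (95% interval -0.08 to 0.23) that centring turned to -0.14. In E85Q they went from 120.0 and 123 RPKM to 91.4 and 93.3 RPKM and fell by 0.39 (SE 0.07, adjusted p = 0.00055). In D87E they went from 138 and 135 RPKM to 119 and 128 RPKM, a difference of -0.14 (95% interval -0.30 to 0.01) that was called after centring, at -0.27, and without starved isolate 888, at -0.20.

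TE asks whether footprints moved more or less than mRNA. In WT 1 of the 10 genes rose in TE and 2 fell, where 16.7% of all tested genes rose and 36.6% fell, or 26.6% and 23.9% after centring. LYP1 TE went from 0.86 and 0.75 to 1.16 and 1.27 and rose by 0.41 (SE 0.09, limma adjusted p = 0.0035). LYP1 was thus the member with the highest TE in either medium. TAT1 TE went from -0.31 and -0.19 to -0.96 and -1.27 and fell by 0.87 (SE 0.19, adjusted p = 0.0033). TAT2 TE went from -0.38 and -0.34 to -0.7 and -0.85 and fell by 0.41 (SE 0.08, adjusted p = 0.0019). With a pseudocount of 10 both falls shrank, to -0.13 and -0.11, and were not called. That pseudocount exceeds the starved WT means of TAT1 (1.53 RPKM in footprints, 4.46 RPKM in mRNA) and of TAT2 footprints (7.04 RPKM). It therefore pulls TE toward 0 at such levels and cannot decide whether the falls hold. The starved WT isolates disagreed on several other genes. TE of starved isolates 172 and 600 was 0.8 and 0.28 for AGP1, 0.86 and 0.47 for DIP5, and 1.1 and 0.71 for GNP1, with footprints far apart (18.3 and 12.9 RPKM for GNP1) and mRNA close (8.05 and 7.51 RPKM). Of the 10 genes, 7 had higher footprints in isolate 172 than in isolate 600 of starved WT, and 3 had lower ones. The 7 were those that fell strongly, and the 3 were CAN1, GAP1 and LYP1. How all tested genes split between these isolates was not computed, so the count describes these genes only.

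In E85Q no gene of the set was called in TE by limma, where 6.2% of all tested genes were. At the looser threshold of an unadjusted p below 0.05 there were 2 of the 10, and no share of all tested genes was computed there. The estimates ran from -0.60 for TAT1 (adjusted p = 0.097) to 0.21 for LYP1 (adjusted p = 0.19). In D87E 8 genes fell in TE and 1 rose, where 47.9% of all tested genes fell and 13.1% rose, or 24.7% and 27.9% after centring. The largest falls were those of TAT1 (-1.25, SE 0.19), TAT2 (-0.88, SE 0.08) and DIP5 (-0.71, SE 0.12). DIP5 TE went from 0.7 and 0.75 to -0.05 and 0.08 in the D87E isolates. BAP2 (-0.56, SE 0.10), AGP1 (-0.57, SE 0.14), CAN1 (-0.47, SE 0.08), BAP3 (-0.37, SE 0.07) and GAP1 (-0.32, SE 0.10) fell as well, while LYP1 rose by 0.30 (SE 0.09). GNP1 was not called (-0.10, 95% interval -0.37 to 0.17). Adjusted p values of the called genes lay between 1.2e-05 and 0.016. The median TE difference of all tested genes in D87E was -0.23, and after centring BAP3, GAP1 and AGP1 were no longer called, at -0.12, -0.07 and -0.31. GAP1 was also lost without starved isolate 887 (-0.18) or fed isolate 888 (-0.29), and LYP1 without fed isolate 887 (0.23) or starved isolate 888 (0.24).

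**Figure D4:**
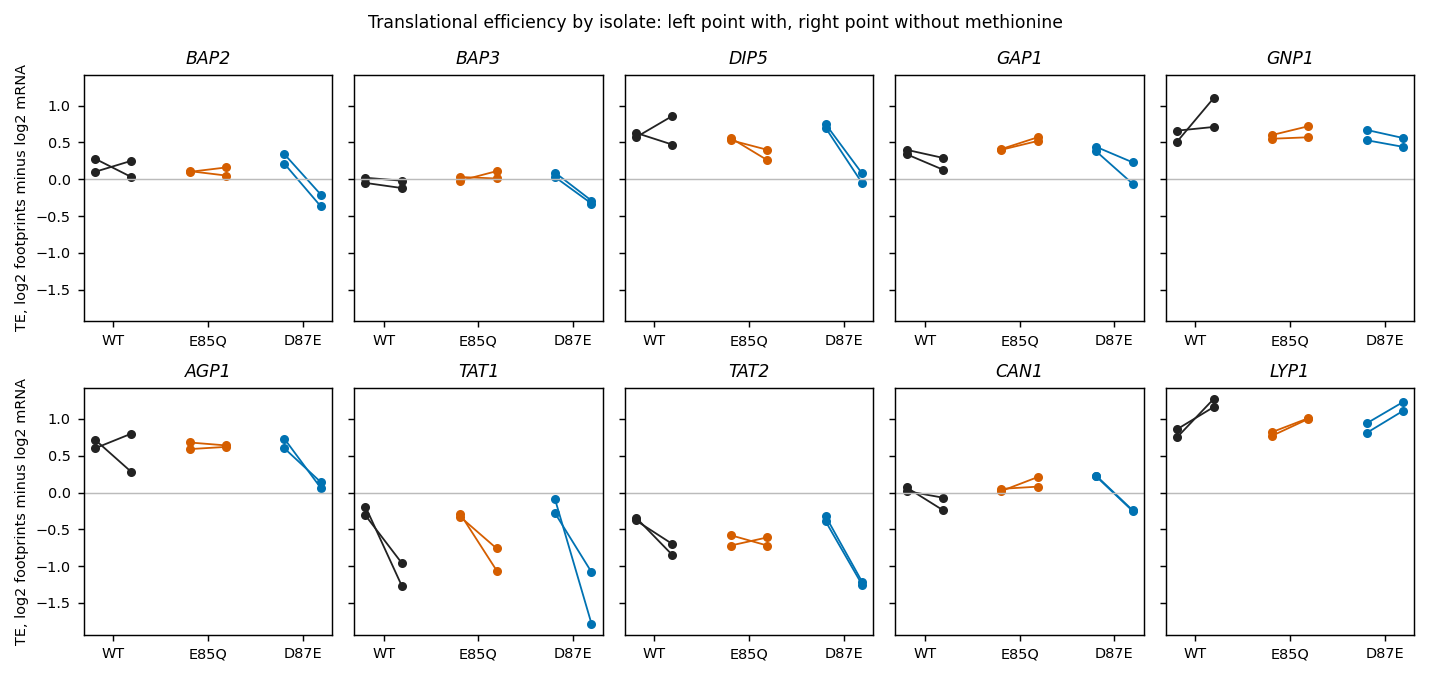
TE of each gene (log2 footprint minus log2 mRNA value) with methionine (left point) and without (right point), with a line for each isolate and colours for genotypes. D87E isolates slope downward for most genes, E85Q isolates stay nearly flat for most genes, and the starved WT isolates are far apart for DIP5, GNP1 and AGP1.

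The E85Q comparisons ask which permeases depend on the variant in each medium. In fed cells 3 genes of the set were lower in E85Q mRNA and none higher, where 6.2% of all tested genes were lower and 22.4% higher. Centring turned that split of all genes to 13.7% lower and 6.44% higher, and 6 genes of the set were then called. The differences were -0.41 for GAP1 (SE 0.07, limma adjusted p = 0.0046), -0.34 for CAN1 (SE 0.06, adjusted p = 0.0065) and -0.19 for DIP5 (SE 0.05, adjusted p = 0.016). The DIP5 call was lost without fed WT 600 (-0.19), E85Q 623 (-0.21) or E85Q 625 (-0.16), and the CAN1 call without E85Q 623 (-0.28). DIP5 was also lost when only the groups compared were fitted (-0.19, limma adjusted p = 0.055). In footprints CAN1 was the single call (-0.35, SE 0.07, limma adjusted p = 0.025), where 3.54% of all tested genes were lower and 4.07% higher. After centring these shares were 4.6% and 2.03%, and 2 genes of the set were called. The CAN1 footprint call was lost when any of the 4 fed WT and E85Q libraries was left out, reading between -0.39 and -0.31. No TE of the set was called by limma in fed cells, where 0.143% of all tested genes were. At the looser threshold of an unadjusted p below 0.05 there was 1, and no share of all tested genes was computed there.

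In starved cells 5 genes were lower and 2 higher in E85Q mRNA, where 45.5% of all tested genes were lower and 15.7% higher, or 26.2% and 30.7% after centring. BAP3 differed by -1.10 (SE 0.07, limma adjusted p = 2.3e-06) and BAP2 by -1.02 (SE 0.11, adjusted p = 4.4e-05), which is 2.15-fold and 2.03-fold lower than in WT on that scale. DIP5 differed by -0.48 (SE 0.05, adjusted p = 2e-05), LYP1 by -0.40 (SE 0.06, adjusted p = 0.00033) and CAN1 by -0.23 (SE 0.06, adjusted p = 0.01). AGP1 was higher by 0.59 (SE 0.07, adjusted p = 4.7e-05) and GAP1 by 0.36 (SE 0.07, adjusted p = 0.0012). The CAN1 difference was lost after centring, at -0.04, and without starved WT 172, at -0.19. Footprints gave 4 lower and 2 higher genes, where 32.5% of all tested genes were lower and 20.6% higher (22.6% and 31.5% after centring): BAP2 by -1.06, BAP3 by -0.97, DIP5 by -0.81, LYP1 by -0.61, GAP1 by 0.70 and AGP1 by 0.68. These 6 genes kept their direction from mRNA to footprints, whereas CAN1, lower in mRNA, stood at 0.08 in footprints and was not called. TE was called for 3 genes, 1 lower and 2 higher, where 12% of all tested genes were lower and 24% higher (17.5% and 16.9% after centring): DIP5 at -0.33 (SE 0.12), GAP1 at 0.33 (SE 0.10) and CAN1 at 0.30 (SE 0.08). None of these TE calls held without starved E85Q 625 (-0.26, 0.31 and 0.24) or starved WT 172 (-0.14, 0.25 and 0.22), and GAP1 was also lost without starved E85Q 623 (0.36) and after centring (0.26, adjusted p = 0.052). CAN1 (0.30, adjusted p = 0.064) and DIP5 (-0.33, adjusted p = 0.1) were lost when only the groups compared were fitted. The calls over all tested genes, 1763, likewise numbered 733 without starved E85Q 625 and 1103 without starved WT 172. The DIP5 call was lost in 9 of the 12 settings that leave out a sample, and without the filter on low values.

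Tests of the difference between starvation responses compare the response of E85Q itself with that of WT. In mRNA 6 genes of the set were called, 2 positive and 4 negative, where 11.8% of all tested genes were positive and 48.6% negative, or 27.5% and 20.2% after centring. GAP1 (0.78, SE 0.10, limma adjusted p = 0.00018) and AGP1 (0.74, SE 0.09, adjusted p = 0.00019) responded more positively in E85Q. BAP3 (-0.93, SE 0.10, adjusted p = 9.2e-05) and BAP2 (-0.90, SE 0.16, adjusted p = 0.00096) responded more negatively, followed by DIP5 (-0.29, SE 0.06, adjusted p = 0.0036) and LYP1 (-0.27, SE 0.09, adjusted p = 0.024). The median of all tested genes in this comparison was -0.28, and after centring DIP5 and LYP1 stood at 0.03 and 0.05 and were not called. DIP5 was also lost with a pseudocount of 10 (-0.03), and LYP1 without fed WT 172 (-0.24), starved WT 600 (-0.25), starved E85Q 623 (-0.25) or fed E85Q 625 (-0.22). TAT1 (-0.19, 95% interval -0.53 to 0.16), TAT2 (-0.16, -0.41 to 0.08), GNP1 (given above) and CAN1 (0.11, -0.08 to 0.31) were not called. In footprints 3 genes were positive and 4 negative, where 13.8% of all tested genes were positive and 27.7% negative (22.6% and 15.8% after centring): GAP1 at 1.07 (SE 0.16), AGP1 at 0.85 (SE 0.19), CAN1 at 0.43 (SE 0.10), LYP1 at -0.47 (SE 0.10), DIP5 at -0.57 (SE 0.16), BAP3 at -0.81 (SE 0.08) and BAP2 at -0.86 (SE 0.20). With a pseudocount of 10, BAP2 and DIP5 footprints were not called, at -0.31 and -0.19. The DIP5 footprint call was also lost after centring (-0.40), without fed WT 172 (-0.54) and without starved E85Q 625 (-0.49). TE was called for TAT2 alone (0.40, SE 0.12, adjusted p = 0.035), where 17.4% of all tested genes were positive and 4.44% negative (8.14% and 7.9% after centring), and with isolate as a replicate block its adjusted p was 0.06. That call was lost after centring (0.27) and in 8 of the 12 settings that leave out a sample, at 0.32 to 0.47. The TE calls over all tested genes, 1069, numbered 436 without fed E85Q 623, 404 without starved E85Q 625, 385 without fed WT 600 and 688 without starved WT 172. BAP2 was called and its neighbour TAT1 was not, a contrast between genes that was not itself tested.

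**Figure D5:**
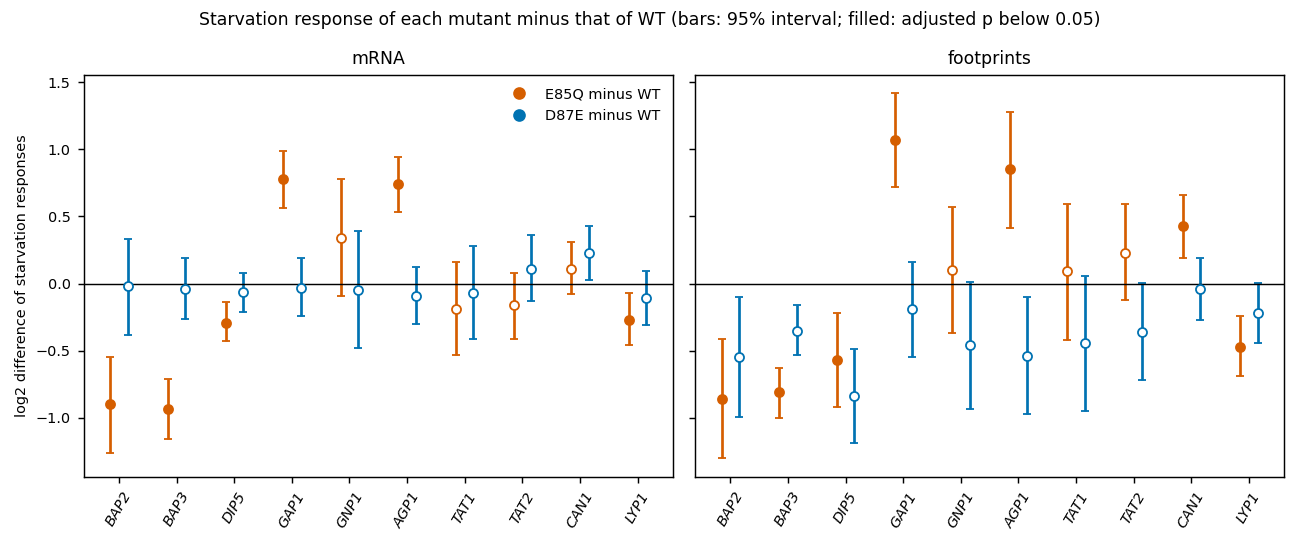
Starvation response of each variant minus that of WT for mRNA (left) and footprints (right), as log2 differences with 95% intervals; filled points have an adjusted p below 0.05. E85Q points reach 0.78 for GAP1 and -0.93 for BAP3 in mRNA, and every D87E point is open, with all D87E footprint points below 0.

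For D87E against WT no gene of the set was called by limma in either medium or in the difference of responses. With methionine 0% of all tested genes were called in mRNA, 0.0614% in footprints and 0.143% in TE. Without methionine these shares were 0% in mRNA, 0% in footprints and 0.0205% in TE, and for the difference of responses 0% in each of the 3 measures. In fed cells the unadjusted p lay below 0.05 for 0 genes in mRNA, 0 in footprints and 1 in TE. The mRNA differences of the set ran from -0.11 to 0.07 with methionine and from -0.16 to 0.13 without. Footprints of starved D87E cells ran lower for 9 of the 10 genes, from -0.72 to 0.03. The unadjusted p lay below 0.05 for 7 of these in footprints and for 1 gene in mRNA. DIP5 footprints differed by -0.72 (95% interval -0.97 to -0.47, adjusted p = 0.1), AGP1 by -0.53 (-0.84 to -0.22, adjusted p = 0.17), BAP2 by -0.44 (-0.76 to -0.13, adjusted p = 0.22) and BAP3 by -0.32 (-0.44 to -0.19, adjusted p = 0.11). TE of starved D87E cells was lower for all 10 genes, from -0.65 to -0.04, with 6 at an unadjusted p below 0.05. The set's median was -0.32 in footprints and -0.36 in TE, beside -0.06 and -0.08 over all tested genes. Leaving out a library added calls. Without starved WT 600, 2 footprint and 4 TE differences of the set were called, where 0.389% and 1.51% of all tested genes were. Without starved D87E 888, 3 footprint differences were called, where 10.8% of all tested genes were, 8.86% lower and 1.92% higher. In the difference of responses, 1 mRNA, 4 footprint and 7 TE values had an unadjusted p below 0.05. Counts at this unadjusted threshold, here and above, stand without a share of all tested genes, which was not computed. The 10 genes were read from the same libraries, so such counts are not independent observations. Without starved WT 600 the calls there were 2 in footprints and 1 in TE, beside 0.225% and 0.471% of all tested genes, and without starved D87E 888 they were 2 in footprints, beside 1.15%.

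The responses of E85Q and D87E were also compared with each other, on the same E85Q samples as above. In mRNA 2 genes were positive and 3 negative, where 10% of all tested genes were positive and 47.7% negative (24.8% and 18.7% after centring), with GAP1 at 0.80 (SE 0.10), AGP1 at 0.82 (SE 0.09), BAP3 at -0.89 (SE 0.10), BAP2 at -0.88 (SE 0.16) and DIP5 at -0.23 (SE 0.06), the last turning to 0.08 after centring and not called without fed E85Q 623 (-0.20) or with a pseudocount of 10 (-0.01). In footprints 4 were positive and 1 negative, where 16.4% of all tested genes were positive and 18.8% negative (22% and 14.9% after centring): AGP1 at 1.38 (SE 0.19), GAP1 at 1.26 (SE 0.16), TAT2 at 0.59 (SE 0.16), CAN1 at 0.47 (SE 0.10) and BAP3 at -0.47 (SE 0.08). TAT2 was lost without fed E85Q 625 (0.54), starved E85Q 625 (0.55) or fed D87E 887 (0.55). TE was called for 7 genes, all positive, where 32.9% of all tested genes were positive and 4.48% negative, or 9.82% and 11% after centring. TAT2 stood at 0.87 (SE 0.12, limma adjusted p = 0.0013) and CAN1 at 0.59 (SE 0.11, adjusted p = 0.0042), and both were also called after centring. BAP2 (0.57), AGP1 (0.56), DIP5 (0.50), GAP1 (0.46) and BAP3 (0.43) were called as well, with adjusted p values from 0.011 to 0.046, but not after centring, where they read 0.34, 0.33, 0.27, 0.23 and 0.19. AGP1 was also lost with the replicate block, with a pseudocount of 0.1 and without the filter (limma adjusted p = 0.066, 0.053 and 0.067). Of the 12 settings that leave out a sample, 10 lost AGP1 (0.49 to 0.62), 7 lost DIP5 (0.43 to 0.57), 6 lost GAP1 (0.32 to 0.50) and 1, without fed D87E 888, lost BAP2 (0.51). Over all tested genes, 1717 footprint calls numbered 1078 without fed D87E 887 and 1069 without fed D87E 888, and 1828 TE calls numbered 1187 without fed D87E 888 and 1147 without starved E85Q 625.

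Genes whose mRNA varied most like each permease over the 12 mRNA libraries were taken by Pearson's r of log2(RPKM + 1). These r values mostly reflect the contrast of the media, which all libraries share, and are a description. For GNP1 they were URA1 (r = 0.9992) and GUA1 (0.9986), genes of pyrimidine and GMP synthesis. For AGP1 they were GLN1, for glutamine synthetase, at 0.999 and DPH5 at 0.9974. GLN1 mRNA fell from 994 to 47.0 RPKM in WT and from 826 to 87.2 RPKM in E85Q, and its response differed between these genotypes by 1.15 (SE 0.11, limma adjusted p = 5.8e-05), beside 0.74 for AGP1. DIP5 paired with PRP43 (0.9986) and AAH1 (0.9983), TAT1 with NMD3 (0.9986) and IMD4 (0.9985), and TAT2 with RPF2 (0.9986) and IKI3 (0.9982). BAP2 paired with DBP2 (0.9962) and TRM1 (0.9958), and BAP3 with SER3 (0.9951), a serine synthesis gene, and YBR056W-A (0.9921). For CAN1 they were PCL5 (0.9954) and MCH1 (0.9937), and for LYP1 YLR194C (0.9707) and ADE1 (0.9706). GAP1 had the weakest matches, RNR4 (0.9568) and CSR1 (0.9163). Among the members themselves, r between DIP5 and TAT1 was 0.998, between BAP2 and BAP3 0.978, and between GAP1 and CAN1 0.58.

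Most other tested genes listed with the family rose, whereas most members fell. The family list also named SSY1, for the SPS sensor, which stands in the SPS list below as well. As above, 60.2% of all tested genes rose and 26.7% fell in mRNA in WT, 46.5% and 30.3% in E85Q, and 60.7% and 25.5% in D87E, and the counts of each list below stand beside these shares. Of 8 tested genes, which include the carriers of methionine and its derivatives, 7 rose and 1 fell in mRNA in each genotype. Median differences were 5.0 in WT, 4.4 in E85Q and 4.89 in D87E. The footprint counts were the same. In footprints 51.3% of all tested genes rose and 32.1% fell in WT, 44.8% and 30.6% in E85Q, and 47.3% and 35% in D87E. MMP1, for S-methylmethionine uptake, went from 0.926 to 1230.0 RPKM in WT, and AGP3, a broad low-affinity permease gene, from 1.98 to 1130.0 RPKM. HIP1, the histidine permease gene, was the fall (48.6 to 36.5 RPKM in WT, -0.40, SE 0.08). Starved AGP3 mRNA in WT was therefore above that of any of the 10 members. Of 13 vacuolar amino acid transporter genes, 11 rose and 2 fell in WT mRNA, 11 and 2 in E85Q, and 10 and 2 in D87E. AVT7 rose by 2.08 (SE 0.09) and ATG22, for export of amino acids from the vacuole, by 1.68 (SE 0.13), while YPQ1 (-1.24, SE 0.10) and VBA4 (-0.42, SE 0.05) fell in WT.

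Genes of the SPS pathway that senses extracellular amino acids were counted next. Of 15 tested, 12 rose and 3 fell in WT mRNA (median 0.75), 11 and 2 in E85Q (0.42), and 9 and 3 in D87E (0.71), where 60.2%, 46.5% and 60.7% of all tested genes rose. STP2, encoding one of the activators, rose from 37.1 to 108 RPKM in WT (1.52, SE 0.07), and ASI2, for a nuclear membrane factor that restrains unprocessed Stp1 and Stp2, by 1.44 (SE 0.08). STP4 fell from 16.0 to 5.4 RPKM (-1.42, SE 0.10) and YCK2 fell too (-0.39, SE 0.05). In the difference of responses of E85Q and WT, 3 of these genes were positive and 9 negative, where 11.8% of all tested genes were positive and 48.6% negative (27.5% and 20.2% after centring). STP4 responded by 0.98 (SE 0.14) more positively and SSY5, for the protease that processes Stp1 and Stp2, less positively (difference -0.79, SE 0.10).

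All 5 genes of the nitrogen GATA factors and their regulator rose in WT and D87E mRNA, and 4 rose and 1 fell in E85Q. DAL80, for a repressing GATA factor, went from 0.109 RPKM, near the level of 3 reads, to 32.7 RPKM in WT and reached 13.4 RPKM in starved E85Q. GAT1, for an activating factor, went from 30.0 to 170.0 RPKM in WT and from 23.4 to 119 RPKM in E85Q. GZF3 responded less in E85Q (difference -0.80, SE 0.08). Of 18 tested targets of nitrogen catabolite repression other than the members, 13 rose and 4 fell in WT and D87E mRNA, and 14 rose and 3 fell in E85Q. The proline permease gene PUT4, which also stands in the family list, rose by 3.02 (SE 0.11) and DAL3 by 2.98 (SE 0.06) in WT, while GLN1 (-4.38, SE 0.08) and CAR1, for arginase (-2.13, SE 0.08), fell. CAR2, for ornithine transaminase, fell in WT (36.9 to 21.2 RPKM) and rose in E85Q (21.3 to 31.0 RPKM), a difference of responses of 1.29 (SE 0.09, limma adjusted p = 1.2e-05), the same sign as GAP1. In that comparison 3 of the 18 targets were positive, 3 negative and 12 not called in mRNA. Of all tested genes 11.8% were positive and 48.6% negative there (27.5% and 20.2% after centring). In footprints 8 targets were positive, 1 negative and 9 not called, beside 13.8% positive and 27.7% negative of all tested genes (22.6% and 15.8% after centring).

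Genes that act on permeases after synthesis were counted last. Of 14 tested genes of permease ubiquitination and endocytosis, 13 rose and 0 fell in mRNA in WT and D87E, and 11 rose and 0 fell in E85Q. SSH4 rose by 1.91 (SE 0.08) and DOA4, for a ubiquitin hydrolase, by 1.48 (SE 0.08) in WT, and their responses were lower in E85Q (differences of -0.98, SE 0.11, and -0.88, SE 0.12). In that comparison 11 of the 14 were negative and none positive, beside the 48.6% negative and 11.8% positive of all tested genes, shares that centring moved to 20.2% and 27.5%. Of 16 genes of permease sorting and its kinases, 12 rose and 3 fell in WT mRNA, 7 and 3 in E85Q, and 11 and 3 in D87E, where 60.2%, 46.5% and 60.7% of all tested genes rose. The eisosome gene LSP1 rose by 1.38 (SE 0.08) and NCE102 by 1.29 (SE 0.14) in WT, while SAT4, for a kinase (-0.71, SE 0.05), and SHR3, for the chaperone that permeases need to leave the endoplasmic reticulum (-0.31, SE 0.11, adjusted p = 0.024), fell. LST7 and LST4, known for a role in Gap1 sorting, rose in WT by 0.79 (SE 0.08) and 0.85 (SE 0.07) and were not called in E85Q, with differences of responses of -0.96 (SE 0.12) and -0.91 (SE 0.11). The median of all tested genes in the difference of mRNA responses, -0.28, bears on each of these counts.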

How the data were processed

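The authors deposited RPKM values per gene for 12 mRNA and 12 footprint libraries (18 to 34 nt, per the file names, which also say that positions were masked). Bowtie 1.1.2, TopHat2 2.1.1 and sacCer3 are named in the submitters' processing notes with no role, and which reads enter the scaling is not given in the sources used here. Of 7133 entries per table, 829 carried no value. Values were used as log2(RPKM + 1) without further scaling, and genes averaging 5 RPKM or more in each assay were tested two-sided on 6 group means with limma 3.58.1 (R 4.3.3; eBayes with trend), separately for mRNA, footprints and TE. The script was tested on simulated data. Figures were drawn with matplotlib 3.10.9 in Python 3.11.15. Library sizes were recovered from the steps between low RPKM values: with 33 bases of each gene left out, a fitted number, 68.3% to 79.7% of the values of up to 20 reads lay within 0.05 of a whole read, and no test rests on them. Depth limits counting error only. Coordinates are coding extents from RefSeq's R64 assembly, the assembly of sacCer3, which is S288C and not CEN.PK, and 5716 entries matched it. Strain numbers in the labels pair fed with starved samples of the same isolate. The deviations of paired samples correlated at -0.183, 0.172 and -0.054 in mRNA and -0.024, 0.409 and 0.051 in footprints for WT, E85Q and D87E. Settings varied were the pseudocount (0.1, 10), the filter, median-centring, the samples in the fit, the block, subtraction of 1% carry-over between footprint libraries, and each of the 12 samples left out in turn. The members and gene lists were chosen with earlier results of these data known. Named besides all members and DIM1 were the 2 genes most like each member and, in each list, the 2 largest rises and falls in WT mRNA and the 2 largest differences of response between E85Q and WT. Promoter and protein sequences were not analysed here.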

Additional observations from a re-analysis of the deposited data

Results flagged for a closer look

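Results in which the starvation response differed between genotypes by a limma test of the difference itself (adjusted p below 0.05) are gathered here as log2 differences of responses. For E85Q minus WT they were, in mRNA, GAP1 0.78, AGP1 0.74, LYP1 -0.27, DIP5 -0.29, BAP2 -0.90 and BAP3 -0.93. In footprints they were GAP1 1.07, AGP1 0.85, CAN1 0.43, LYP1 -0.47, DIP5 -0.57, BAP3 -0.81 and BAP2 -0.86, and in TE TAT2 0.40. For E85Q minus D87E they were, in mRNA, AGP1 0.82, GAP1 0.80, DIP5 -0.23, BAP2 -0.88 and BAP3 -0.89. In footprints they were AGP1 1.38, GAP1 1.26, TAT2 0.59, CAN1 0.47 and BAP3 -0.47. In TE they were TAT2 0.87, CAN1 0.59, BAP2 0.57, AGP1 0.56, DIP5 0.50, GAP1 0.46 and BAP3 0.43. Both comparisons use the same E85Q samples. GAP1, AGP1 and BAP3 were called in mRNA and footprints of both, with an unchanged sign.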

How the results depend on the processing

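Groups of 2 and shallow footprint libraries of starved WT and D87E cells limit these results. The tally of single member values covers those called with the main settings and all starvation differences in mRNA and footprints. Under settings other than leaving out a sample, 855 of these recomputed values kept their direction and side of the threshold. A further 30 were lost, 2 were gained and 6 turned. Gains among the other uncalled values are not in this tally. Those that turned did so on median-centring: GAP1 mRNA in WT (-0.33) and D87E (-0.35), LYP1 footprints in WT (-0.14), and the differences of mRNA responses of DIP5 (0.03) and LYP1 (0.05) for E85Q minus WT and of DIP5 (0.08) for E85Q minus D87E. GAP1 footprints in WT ranged from -0.21 without starved isolate 600 to 0.05 without starved isolate 172. Counts of members called moved as follows. In E85Q TE, 0 became 2 with a pseudocount of 10, 1 with only the groups compared and 1 with carry-over subtraction. For fed E85Q minus WT, 3 mRNA calls became 6 on centring, and 1 footprint call became 2 on centring and 4 with only the groups compared. For starved E85Q minus WT, 3 TE calls became 1 with only the groups compared. For the E85Q minus D87E responses, 7 TE calls became 2 on centring. For the E85Q minus WT responses, 1 TE call became 2 with a pseudocount of 10 and 0 on centring, with only the groups compared and with the replicate block. Leaving out single samples gave 3 to 5 TE calls in WT and 0 to 1 in E85Q. It gave 0 to 3 footprint and 0 to 4 TE calls for starved D87E minus WT, 1 to 3 mRNA and 0 to 2 footprint calls for fed E85Q minus WT, and 0 to 4 TE calls for starved E85Q minus WT. For differences of responses it gave 0 to 2 footprint and 0 to 1 TE calls for D87E minus WT, 4 to 8 footprint and 3 to 7 TE calls for E85Q minus D87E, and 0 to 2 TE calls for E85Q minus WT. Among the tallied values, the replicate block otherwise changed the call of AGP1 TE for E85Q minus D87E and of no other member. Because the WT pairs correlated negatively, crossed WT pairing was added after seeing the data and gave 4 TE calls in WT in place of 3 and 1 for the E85Q minus WT responses. Over all tested genes, E85Q TE calls numbered 303, 533 with a pseudocount of 10 and 156 with only the groups compared, TE calls for E85Q minus D87E numbered 1828 and 1016 on centring, and fed E85Q minus WT footprint calls numbered 372, and 684 with only the groups compared. The last ranged down to 40 when a library was left out, and the mRNA calls of that comparison from 1396 down to 170. The cause of these shifts was not tested.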
